A study of Mus musculus with 45 samples.

Results

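Wild-type dendritic cells given 4µ8C were compared with wild-type cells kept in medium by RNA sequencing, with 5 libraries in each group and 10 of the 45 libraries of the series in all. The libraries were chosen by their labelled genotype and treatment alone. Both groups were bone marrow cells of C57BL/6 mice, cultured with GM-CSF at 20 ng/ml, treated for 8 h and sorted as live cells with high CD11c. The labels count 5 biological replicates per group, give no age, vehicle or 4µ8C dose, and do not say whether LPS was present together with 4µ8C. The groups set beside these were wild-type cells given LPS, 4PBA or rapamycin, and cells labelled Bat3 fl/fl CD11c Cre (KO) given 4µ8C or kept in medium, again with 5 libraries each. In the KO cells the CD11c promoter drives Cre, and Bat3 is an older name of Bag6.

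4µ8C is a small molecule that blocks the RNase of IRE1 (gene Ern1), a sensor of misfolded proteins in the endoplasmic reticulum (ER). Active IRE1 removes an intron from Xbp1 mRNA, so that the transcription factor XBP1s is made and genes of protein folding, translocation and secretion are switched on. IRE1 also degrades some other mRNAs, which is called regulated IRE1-dependent decay (RIDD). In dendritic cells, lipopolysaccharide (LPS) acts through Toll-like receptor 4, NF-κB and interferon regulatory factors on cytokine, chemokine and interferon-stimulated genes, and IRE1 and XBP1s are known to take part in that response. The gene-level values used here do not separate spliced from unspliced Xbp1.

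Reads assigned to genes summed to 1509219 to 3070058 expected counts in 4µ8C libraries and 2876792 to 4233895 in medium libraries. In 4µ8C replicate 4, the shallowest library, Pearson r across genes with the rest of its group was 0.902 to 0.925, against 0.961 to 0.977 among the other 4. Medium replicate 1 stood apart less, at 0.955 to 0.970, against 0.970 to 0.981 among the other 4. Counts are therefore also given without these 2 libraries, a choice made after seeing the data. Each library carries a code of a letter and a number, read here as a plate position. All 5 medium libraries and replicates 4 and 5 of 4µ8C have codes in row A, column 1 or column 12. Of 10287 genes tested, 376 were lower and 41 higher in libraries with such codes, so counts are also given with the code as a term in the fit. When libraries were scaled by their totals instead of TMM factors, the median log2 fold change of all genes was -0.39 instead of -0.05, so fold changes here are relative to the bulk of tested genes.

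Markers of dendritic cells were present in both groups and moved in both directions. The 13 summed to 3437 to 6077 CPM (counts scaled to library size by TMM) with 4µ8C and 3843 to 4857 CPM in medium, and of 11 tested 2 rose and 2 fell. Itgax, which encodes CD11c, had 39.8 to 114 CPM with 4µ8C and 131 to 302 CPM in medium (log2 fold change -1.41, SE 0.34, adjusted p = 0.00095). The integrin Itgam also fell (-0.86, SE 0.22, adjusted p = 0.002), while the transcription factor Zbtb46 (1.84, SE 0.46, adjusted p = 0.0012) and the chemokine receptor Ccr7 (1.01, SE 0.38, adjusted p = 0.033) rose. The MHC class II gene H2-Ab1 had 1169 to 2009 CPM with 4µ8C and 982 to 1524 CPM in medium, while Flt3 and Cd209a averaged under 1 CPM in both groups. The 14 macrophage markers summed to 5066 to 6200 CPM with 4µ8C and 3431 to 5231 CPM in medium, with Vsig4 and Timd4 at 0. The 13 neutrophil markers summed to 671 to 1602 CPM with 4µ8C and 556 to 860 CPM in medium, with Mpo, Elane, Ngp and Retnlg at 0 in all 10 libraries. The B cell, T and NK cell and erythroid lists each summed to at most 2.27 CPM in any library. The part of other cell types in the results was not tested. In these bulk samples fewer cells of a type and less RNA per cell cannot be told apart.

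The 4µ8C libraries differed from medium libraries at 4122 of 10287 genes, 2059 higher (20.0% of all tested) and 2063 lower (20.1%). Adjusted p-values are from edgeR's quasi-likelihood test over all 45 libraries with Benjamini-Hochberg adjustment, two-sided, and genes under 0.05 are called. Of the called genes, 859 were higher and 919 lower by more than 1 on the log2 scale. The 5 libraries of the groups did not overlap for 1034 higher genes (10.1%) and 1119 lower genes (10.9%), called or not. With the code term 1834 were higher (17.8%) and 1725 lower (16.8%), of which 1722 and 1595 were called without it too. Among libraries with row A, column 1 or column 12 codes alone, 2 against 5, 939 were higher (9.73%) and 789 lower (8.18%). Without 4µ8C replicate 4 and medium replicate 1 the counts were 2011 higher and 2082 lower, and under library totals 1115 higher and 4145 lower. List counts given below under library totals stand beside 1115 and 4145 of 10287 genes.

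**Figure D1:**
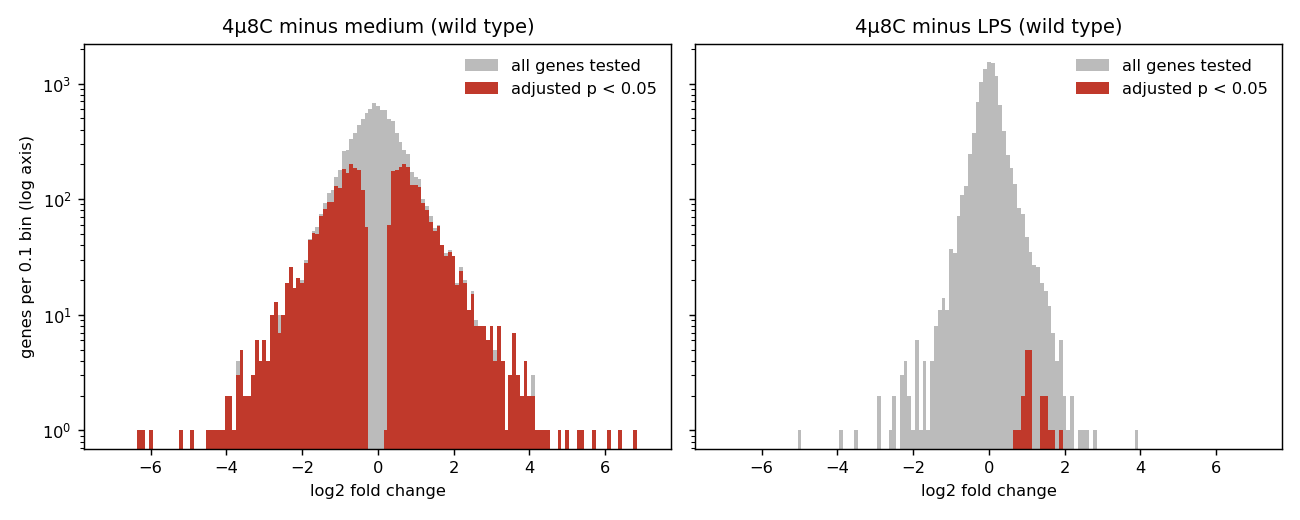
Number of genes per bin of 0.1 log2 units (log axis) against log2 fold change in wild-type cells, for 4µ8C minus medium and 4µ8C minus LPS; grey bars are all 10287 tested genes and coloured bars those with an adjusted p under 0.05. Against medium 4122 called genes lie on both sides of 0; against LPS 21 are called, all above 0.

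Inflammatory cytokine transcripts were higher with 4µ8C. Of 22 tested members of the cytokine list 20 rose and none fell (background 20.0% higher), with a median log2 fold change of 2.48. Il6, a cytokine that acts on B cells, T cells and the liver, had 103, 139, 135, 307 and 189 CPM in the 5 4µ8C libraries, against 10.5, 3.74, 2.07, 8.52 and 11.9 CPM in medium (log2 fold change 4.51, SE 0.40, adjusted p = 1.3e-11). The groups did not overlap, and the highest value was that of 4µ8C replicate 4. Il1b, whose product is cleaved to mature interleukin-1β by inflammasome caspases, had 3943, 3951, 5172, 9912 and 4847 CPM with 4µ8C, against 536, 223, 210, 309 and 360 CPM in medium (4.08, SE 0.30, adjusted p = 6.9e-14). Tnf had 331, 401, 442, 476 and 156 CPM with 4µ8C, against 93.7, 50.3, 80.5, 46.6 and 68.2 CPM in medium (2.41, SE 0.36, adjusted p = 1.2e-06). The groups were again separate, although 4µ8C replicate 5 was the lowest of its group for Tnf.

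Il33, an alarmin of the interleukin-1 family, had 32.5, 26.6, 1.94, 26.8 and 45.1 CPM with 4µ8C, against 0.49, 0, 0.592, 0 and 0 CPM in medium (log2 fold change 6.77, SE 1.17, adjusted p = 1.3e-05). Replicate 3 lay far below the other 4 4µ8C libraries, yet above all medium libraries. Il27, a subunit of a cytokine that restrains T cells, had 16.4 to 45.4 CPM with 4µ8C and 0.852 to 5.15 CPM in medium (3.90, SE 0.39). Csf3, the granulocyte growth factor, had 1.27, 5.17, 0.97, 5.55 and 3.73 CPM with 4µ8C and no count in medium, at least 21.5-fold higher against a floor of 3 counts over the medium group (0.155 CPM). Il23a, a subunit of interleukin-23, had 1.27, 1.11, 6.79, 0 and 0.746 CPM with 4µ8C and no count in medium, at least 12.8-fold higher by the same floor, and replicate 3 carries most of that mean. Il10, an anti-inflammatory cytokine, was low, with 0.97 to 4.8 CPM with 4µ8C and 0 to 0.981 CPM in medium (2.60, SE 1.03, adjusted p = 0.041; adjusted p = 0.14 with the code term).

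Chemokines for T cells, monocytes and neutrophils were higher as well. Of 21 tested 14 rose and 1 fell, with a median log2 fold change of 1.75. Cxcl10, a ligand of CXCR3 on T and NK cells, had 1242, 1567, 1554, 2336 and 1395 CPM with 4µ8C, against 206, 139, 98.9, 91.7 and 165 CPM in medium (3.53, SE 0.29, adjusted p = 8e-13), without overlap. Cxcl11, a ligand of the same receptor, rose by 3.78 (SE 0.30) and Cxcl9 by 2.46 (SE 0.72). Cxcl1, a neutrophil attractant, had 109 to 184 CPM with 4µ8C and 2.41 to 20.8 CPM in medium (3.60, SE 0.40). Ccl3, an attractant of monocytes, averaged 548 ± 227 CPM with 4µ8C and 107 ± 19.2 CPM in medium (SD, n = 5 each; 2.35, SE 0.30). The member that fell was Ppbp, a platelet chemokine, with 4.85 to 54.4 CPM with 4µ8C and 44.9 to 177 CPM in medium (-1.66, SE 0.64, adjusted p = 0.036; adjusted p = 0.086 with the code term).

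**Figure D2:**
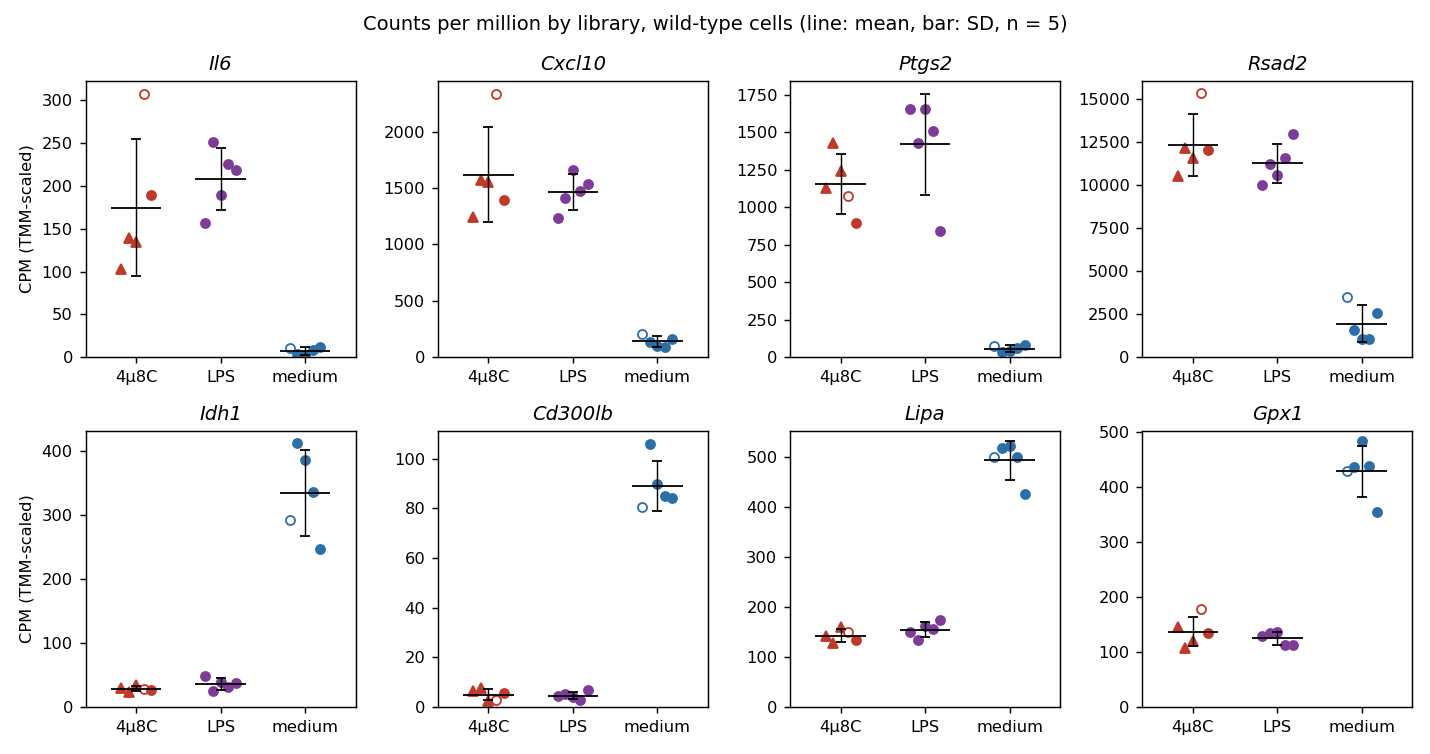
CPM (TMM-scaled, linear axes from 0) of 8 genes in each wild-type library given 4µ8C, LPS or medium; lines are means and bars SD (n = 5), triangles are libraries with codes outside row A and columns 1 and 12, and open symbols are 4µ8C replicate 4 and medium replicate 1. For each of the 8 genes the 4µ8C and medium libraries are separate and the 4µ8C and LPS ranges overlap.

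NF-κB is held in the cytosol by inhibitors whose genes it induces itself. Of 29 tested genes of its subunits and feedback inhibitors 29 rose with 4µ8C (28 with the code term, 24 under library totals), with a median log2 fold change of 1.22. Nfkbia, the inhibitor IκBα, had 1919, 2029, 2009, 3089 and 1841 CPM with 4µ8C, against 972, 653, 478, 484 and 562 CPM in medium (1.79, SE 0.15, adjusted p = 5.2e-14). Its groups did not overlap, and the most extreme library of each was 4µ8C replicate 4 and medium replicate 1. Nfkbiz, a nuclear cofactor needed for Il6 transcription, rose by 2.45 (SE 0.17), Tnfaip3, the ubiquitin-editing enzyme A20, by 2.35 (SE 0.26), Nfkbie by 2.18 (SE 0.14) and Traf1 by 1.84 (SE 0.14). Relb averaged 93.3 ± 11.3 CPM with 4µ8C and 62.3 ± 7.54 CPM in medium (0.59, SE 0.21), and missed the threshold without the 2 libraries that stand apart (adjusted p = 0.052).

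Interferon-stimulated genes rose almost throughout. Of 44 tested 43 rose and none fell, 43 rose with the code term, and the median log2 fold change was 1.29. Rsad2, the antiviral protein viperin, had 10510, 12162, 11594, 15336 and 12054 CPM with 4µ8C, against 3495, 1600, 1033, 1046 and 2571 CPM in medium (2.66, SE 0.36, adjusted p = 1.6e-07). Medium replicates 1 and 5 were the highest of a wide medium group, yet all medium libraries lay below the 4µ8C libraries. Gbp5, a guanylate-binding protein, rose by 2.95 (SE 0.22), Cmpk2 by 2.78 (SE 0.38), Ifi205 by 2.66 (SE 0.21) and Ifit1, which binds foreign RNA caps, by 2.36 (SE 0.31). Isg15, a ubiquitin-like modifier, averaged 915 ± 54.3 CPM with 4µ8C and 299 ± 111 CPM in medium (1.61, SE 0.24). Of 19 genes of JAK-STAT signalling 11 rose and none fell, among them the feedback inhibitor Socs3 (1.98, SE 0.15) and the kinase Jak2 (1.97, SE 0.14).

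The promoters of 4 of these genes are shown because they carry letters that NF-κB or interferon regulatory factors are known to bind. They were chosen for having a match, and Il1b, Ptgs2 and Il33 had none in this window. Each sequence is the 220 bases before the gene's start from RefSeq (build GRCm38.p6), 5′ to 3′ on the gene's strand. Capitals mark the NF-κB consensus in Il6, Cxcl1 and Cxcl10, and the core of the interferon-stimulated response element (GAAA, any 2 bases, GAAA) in Cxcl10 and Isg15.
Il6, chr5:30012894-30013113, + strand: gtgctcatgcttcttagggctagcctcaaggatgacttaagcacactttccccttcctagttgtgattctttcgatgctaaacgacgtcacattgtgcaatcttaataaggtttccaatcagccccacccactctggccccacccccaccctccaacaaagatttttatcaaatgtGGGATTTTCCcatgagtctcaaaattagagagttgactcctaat
Cxcl1, chr5:90891025-90891244, + strand: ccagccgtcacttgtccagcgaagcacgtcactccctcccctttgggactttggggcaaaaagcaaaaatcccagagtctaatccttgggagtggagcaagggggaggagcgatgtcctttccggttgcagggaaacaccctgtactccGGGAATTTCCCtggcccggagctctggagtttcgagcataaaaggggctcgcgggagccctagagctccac
Cxcl10, chr5:92348890-92349109, - strand: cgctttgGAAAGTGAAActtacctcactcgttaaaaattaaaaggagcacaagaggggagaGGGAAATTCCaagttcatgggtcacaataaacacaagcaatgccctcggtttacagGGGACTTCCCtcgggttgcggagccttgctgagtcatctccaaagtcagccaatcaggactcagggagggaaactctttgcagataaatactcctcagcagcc
Isg15, chr4:156200819-156201038, - strand: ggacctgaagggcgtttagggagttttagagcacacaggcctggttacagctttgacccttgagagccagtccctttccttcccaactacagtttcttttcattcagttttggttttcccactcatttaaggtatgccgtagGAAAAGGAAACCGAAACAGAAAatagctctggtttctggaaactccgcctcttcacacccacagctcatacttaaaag
Both strands were searched over 250 upstream bases, and overlapping matches run together in Cxcl1 and Isg15. The NF-κB consensus was found in 3.75% of 27025 promoters, in 9 of 26 of the NF-κB list, 5 of 14 of the chemokine list and 4 of 14 of the cytokine list. The response element core was found in 3.04% of all promoters and in 18 of 33 of the interferon-stimulated list. These are counts of letters, given without a test.

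Genes of dendritic cell maturation rose in part. Of 24 tested 17 rose and none fell (15 rose with the code term, 12 under library totals). Cd40, the receptor for T cell help, had 438, 563, 561, 714 and 444 CPM with 4µ8C, against 108, 37.4, 45, 42.9 and 57.5 CPM in medium (3.22, SE 0.27, adjusted p = 1.9e-12). No library overlapped between the groups, and medium replicate 1 was well above the rest of its group. The costimulatory ligand Cd86 averaged 296 ± 44.3 CPM with 4µ8C and 128 ± 25.6 CPM in medium (1.20, SE 0.18), and Cd70 averaged 10.4 ± 3.84 CPM with 4µ8C and 1.32 ± 0.58 CPM in medium (2.96, SE 0.63). The adhesion receptor Vcam1 had 6.48 to 36.4 CPM with 4µ8C and 0 to 0.981 CPM in medium (6.05, SE 0.70). Ccr7, which guides dendritic cells to lymph nodes, averaged 498 ± 135 CPM with 4µ8C and 247 ± 37.2 CPM in medium (1.01, SE 0.38), and missed the threshold without the 2 libraries that stand apart (adjusted p = 0.089).

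Antigen presentation genes of the 2 MHC classes were counted apart. Of 14 genes of class I loading 11 rose and 1 fell. The peptide transporter Tap1 averaged 773 ± 44 CPM with 4µ8C and 529 ± 129 CPM in medium (0.55, SE 0.12), the tapasin relative Tapbpl rose by 1.13 (SE 0.16), and the immunoproteasome subunit Psmb10 by 1.06 (SE 0.15). Of 14 class II genes 1 rose, 1 fell and 12 did not pass. H2-Ab1 gave 0.37, SE 0.22, adjusted p = 0.18, and the lysosomal protease Lgmn fell by 0.37 (SE 0.13). The difference between these lists was not tested.

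LPS is sensed by Toll-like receptor 4 with the help of CD14. Of 24 genes of LPS sensing 10 rose and 2 fell. Cd14 had 2147, 1819, 1609, 3392 and 2901 CPM with 4µ8C, against 883, 608, 457, 568 and 782 CPM in medium (1.85, SE 0.23, adjusted p = 9.2e-09). Tlr4 itself fell to 74.7, 61, 57.2, 13 and 58.2 CPM with 4µ8C, against 56.6, 79.7, 129, 128 and 125 CPM in medium (-0.93, SE 0.22, adjusted p = 0.00096). The groups of Tlr4 overlapped and 4µ8C replicate 4 was far below the rest, but the value was -0.88 without it and medium replicate 1 (adjusted p = 5e-05). Tlr3, a receptor for double-stranded RNA, rose by 1.74 (SE 0.28) and Tlr2, a receptor for lipopeptides, by 0.71 (SE 0.18).

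Enzymes that make inflammatory mediators moved in both directions. Ptgs2, the inducible cyclooxygenase, had 1126, 1430, 1241, 1073 and 895 CPM with 4µ8C, against 76.5, 33.7, 38.5, 58.2 and 80.3 CPM in medium (4.32, SE 0.32, adjusted p = 1.4e-13), and Ptges, which makes prostaglandin E2 from its product, rose by 2.57 (SE 0.26). The constitutive cyclooxygenase Ptgs1 fell to 4.97 ± 2.26 CPM with 4µ8C, against 31.2 ± 9.26 CPM in medium (-2.59, SE 0.39), and Alox5, the first enzyme of leukotriene synthesis, fell to 0.49 ± 0.5 CPM, against 6.8 ± 2.15 CPM in medium (-3.53, SE 0.57). Over that list 4 of 16 rose and 8 fell. Of the nitric oxide, arginine and itaconate list 10 of 18 rose and 5 fell. In it Nos2, the inducible nitric oxide synthase, rose by 1.59 (SE 0.18), Irg1, which makes itaconate, by 1.63 (SE 0.14) and the arginase Arg2 by 2.26 (SE 0.24). Hdc, which makes histamine, averaged 210 ± 36.4 CPM with 4µ8C and 14.5 ± 9.83 CPM in medium (3.85, SE 0.32). Of the 13 genes of the mast cell and eosinophil list, which holds Hdc, 6 were at 0 in all 10 libraries, among them Cpa3, Fcer1a, Epx and Prg2. Kit averaged 2.23 CPM with 4µ8C and 2.87 CPM in medium, and Siglec5 1.2 and 2.0 CPM.

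Other genes among the largest rises were Plat, the tissue plasminogen activator (4.20, SE 0.39), Serpinb1a, an inhibitor of neutrophil proteases (4.14, SE 0.39), and Slamf1, a receptor of the signalling lymphocytic activation family (3.95, SE 0.62). U90926 rose by 4.41 (SE 0.38) and Schip1 by 3.90 (SE 0.26). Of 32 genes of glycolysis and hypoxia 20 rose and 1 fell, against 12 and 6 under library totals. Hif1a, the oxygen-regulated transcription factor, averaged 1029 ± 220 CPM with 4µ8C and 384 ± 94.3 CPM in medium (1.42, SE 0.16). The glucose transporter Slc2a1 rose by 1.20 (SE 0.14), the glycolytic regulator Pfkfb3 by 1.90 (SE 0.21) and the angiogenic factor Vegfa by 1.44 (SE 0.24).

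Of 21 cytosolic heat shock genes 12 rose and 4 fell. Hspa1a, which has a near-identical copy and is uncertain for that reason, averaged 416 ± 84.4 CPM with 4µ8C and 100 ± 72.6 CPM in medium (2.04, SE 0.49). The co-chaperone Dnaja1 rose by 1.31 (SE 0.14), and Hsf1, the transcription factor of the heat shock response, fell by 0.92 (SE 0.26). Among 24 immediate early genes 12 rose and 4 fell (5 and 5 under library totals); Fosl1 rose by 2.02 (SE 0.28) and Egr1 fell by 1.71 (SE 0.47). Of 15 p53 targets 2 rose and 4 fell, with the cell cycle inhibitor Cdkn1a at 1.33 (SE 0.12) and Sesn1 at -2.22 (SE 0.45).

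**Figure D3:**
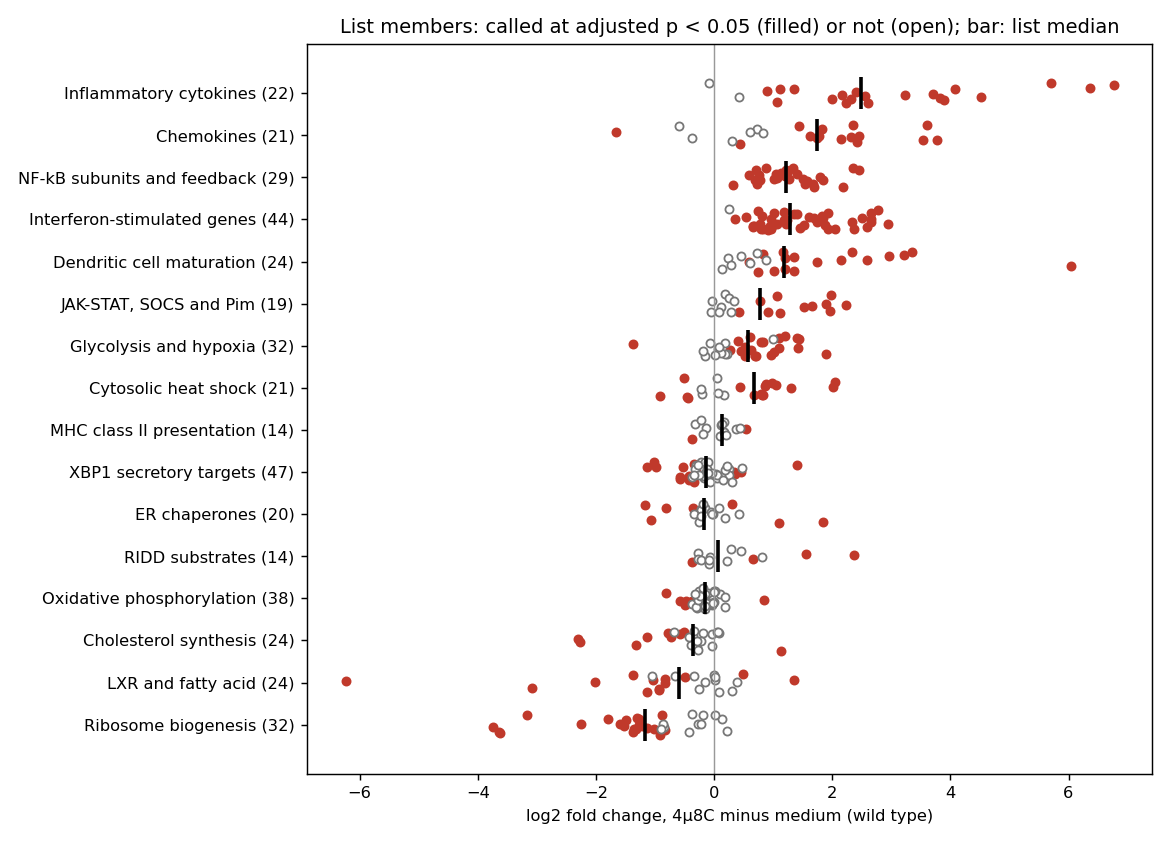
Log2 fold change, 4µ8C minus medium in wild-type cells, of each tested member of 16 gene lists; filled points passed at an adjusted p under 0.05, open points did not, and the bar is the list's median. Cytokines, chemokines, NF-κB genes and interferon-stimulated genes have medians of 1.22 to 2.48, ribosome biogenesis has a median of -1.17, and the XBP1, ER chaperone and RIDD lists have medians near 0.

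Among genes with at least 10 CPM in a group and no overlap, the largest falls were in genes of varied function. Cd300lb, an activating receptor of myeloid cells, fell to 6.33, 7.76, 2.43, 2.78 and 5.59 CPM with 4µ8C, against 80.4, 106, 89.7, 84.9 and 84 CPM in medium (-4.05, SE 0.22, adjusted p = 9.5e-20). Idh1, the cytosolic isocitrate dehydrogenase that yields NADPH, fell to 29.5, 22.9, 34.4, 28.7 and 26.5 CPM with 4µ8C, against 293, 413, 387, 336 and 248 CPM in medium (-3.57, SE 0.20, adjusted p = 2.4e-19). For both genes every 4µ8C library lay far below every medium library. Snx24, a sorting nexin, had 0 to 0.97 CPM with 4µ8C and 6.95 to 13.5 CPM in medium (-4.37, SE 0.49). Lrmp fell by 4.13 (SE 0.44), Pald1 by 3.93 (SE 0.64), the glycosyltransferase Gcnt1 by 3.31 (SE 0.46) and Tmem154 by 3.24 (SE 0.30). Nrep fell by 3.00 (SE 0.47), Cdc42ep3 by 2.97 (SE 0.36), Rassf5 by 2.96 (SE 0.29) and the signalling receptor Nfam1 by 2.95 (SE 0.20).

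Lipid synthesis genes were among the lower transcripts. Of 24 liver X receptor targets and fatty acid genes 2 rose and 11 fell (background 20.1% lower), and the list median was -0.59. With the code term 3 rose and 9 fell, with a median of -0.36, and under library totals the median was -0.91. Fads1, a desaturase of polyunsaturated fatty acids, fell to 5.06, 2.59, 7.28, 3.7 and 2.24 CPM with 4µ8C, against 26.2, 36.6, 53.3, 40.6 and 19.5 CPM in medium (-3.09, SE 0.31, adjusted p = 1e-11), without overlap. The elongase Elovl6 had no count in any 4µ8C library and 4.17, 2.14, 3.55, 4.83 and 0.434 CPM in medium, at least 11-fold lower with 4µ8C against a floor of 3 counts over the group (0.275 CPM). Fasn, the fatty acid synthase, fell by 2.01 (SE 0.54), and Nr1h3, the receptor LXRα, rose by 1.36 (SE 0.32). Of 24 cholesterol synthesis genes 1 rose and 8 fell. Among those that fell was the cyclase Lss (-1.32, SE 0.25), and the one that rose was the isomerase Idi1 (1.14, SE 0.29).

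Ribosome biogenesis had the lowest median of the 36 lists, at -1.17. Of its 32 tested members 21 fell and none rose (background 20.1% lower), with 19 lower with the code term and 20 without the 2 libraries that stand apart. Among libraries with row A, column 1 or column 12 codes alone 4 of 32 were lower, beside 8.18% of all genes there. Myc, the transcription factor that drives these genes, fell to 0, 1.11, 1.46, 0 and 0 CPM with 4µ8C, against 9.56, 10.7, 4.44, 6.81 and 4.56 CPM in medium (-3.62, SE 0.67, adjusted p = 2.2e-05), without overlap. Rrp12, a factor of ribosomal RNA processing, averaged 0.172 ± 0.238 CPM with 4µ8C and 2.75 ± 1.36 CPM in medium (-3.64, SE 0.87), and Rrp15 had a count in 1 of 5 4µ8C libraries and 1.72 to 4.78 CPM in medium (-3.75, SE 0.75). The abundant nucleolar protein Ncl gave -0.28, SE 0.16, adjusted p = 0.15. Of the 41 ribosomal protein genes in the list 3 rose and none fell, but 29 fell under library totals. Rps27, which is not in the list, was called lower and is given further below as uncertain. Of 38 oxidative phosphorylation genes 1 rose and 6 fell, against 34 lower under library totals. Without the 2 libraries that stand apart 18 of these 38 fell, beside 2082 of 10388 genes in that fit. With the code term 3 of the 38 fell.

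Counts of lysosomal, autophagy and proteasome genes stand beside 20.0% of all genes higher and 20.1% lower. Counts under library totals stand beside 1115 of all 10287 genes higher and 4145 lower, a shift of all genes. The balance of the autophagy and proteasome lists turned with that shift. Of 36 lysosomal genes 6 rose and 10 fell (4 and 23 under library totals). Lipa, the acid lipase, fell to 141, 128, 160, 150 and 133 CPM with 4µ8C, against 500, 517, 522, 499 and 426 CPM in medium (-1.79, SE 0.15, adjusted p = 8e-14). The libraries of each group were close together. Tfeb, a transcription factor of lysosomal genes, fell by 2.40 (SE 0.39), and the protease Ctsc averaged 4032 ± 892 CPM with 4µ8C and 1360 ± 382 CPM in medium (1.57, SE 0.15). In the autophagy list 6 of 25 rose and 3 fell (3 and 10 under library totals); the cargo receptor Sqstm1 rose by 0.71 (SE 0.13) and the conjugation enzyme Atg7 fell by 1.67 (SE 0.15). Steap3, an endosomal iron reductase, fell by 3.82 (SE 0.66). Of 31 proteasome genes 10 rose and 3 fell, but 4 rose and 17 fell under library totals. Psmd3 gave 1.02 (SE 0.32) and Psmb6 0.88 (SE 0.13).

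Genes of the unfolded protein response, the pathway 4µ8C acts on, changed in both directions. Of 7 components of the IRE1 branch 3 rose and 1 fell (2 and 3 under library totals). Xbp1 had 227, 220, 223, 152 and 184 CPM with 4µ8C, against 111, 310, 338, 316 and 260 CPM in medium (-0.40, SE 0.16, adjusted p = 0.039). Medium replicate 1 was the only medium library inside the 4µ8C range or below it. Without it and 4µ8C replicate 4 the value was -0.52 (adjusted p = 0.0007), but the adjusted p was 0.09 with the code term, and the call was also lost when any of medium replicates 2, 3 and 4 or 4µ8C replicates 4 and 5 was left out. Ern1 averaged 12 ± 2.2 CPM with 4µ8C and 17.9 ± 5.72 CPM in medium (-0.57, SE 0.24, adjusted p = 0.054). Traf2 and Map3k5, through which IRE1 signals to JNK, rose by 0.90 (SE 0.13) and 1.45 (SE 0.27).

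Hspa5, the chaperone BiP that holds IRE1 inactive, had 531, 565, 556, 665 and 601 CPM with 4µ8C, against 591, 522, 358, 363 and 517 CPM in medium (0.31, SE 0.12, adjusted p = 0.041). The groups overlapped, and the direction turned under library totals (-0.03, adjusted p = 0.86). The call was also lost without medium replicate 3 or 4 or 4µ8C replicate 2, 4 or 5. Dnajc3, an ER co-chaperone that inhibits PERK, had 23.6, 25.1, 26.7, 29.6 and 19.4 CPM with 4µ8C, against 28.9, 32.9, 28.1, 31.5 and 42.6 CPM in medium (-0.42, SE 0.15, adjusted p = 0.019; adjusted p = 0.07 with the code term), with overlap. The promoters of both are shown because each carries the ER stress response element (CCAAT, any 9 bases, CCACG), in capitals, from the same source and search as above.
Hspa5, chr2:34771870-34772089, + strand: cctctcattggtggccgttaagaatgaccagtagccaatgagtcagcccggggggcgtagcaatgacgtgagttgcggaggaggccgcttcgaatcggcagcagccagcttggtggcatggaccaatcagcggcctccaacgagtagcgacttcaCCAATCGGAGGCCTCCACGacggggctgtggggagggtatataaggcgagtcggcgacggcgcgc
Dnajc3, chr14:118937712-118937931, + strand: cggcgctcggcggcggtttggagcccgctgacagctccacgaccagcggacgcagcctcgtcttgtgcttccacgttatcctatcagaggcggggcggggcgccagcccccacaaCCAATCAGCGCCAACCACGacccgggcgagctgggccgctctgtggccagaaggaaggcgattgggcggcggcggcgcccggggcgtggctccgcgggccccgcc
The element was found in 0.122% of all promoters, in 4 of 38 of the XBP1s target list and in 4 of 15 of the ER chaperone list, and not in the windows of Pdia4, Sec61b or Rpn1.

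XBP1s targets of the secretory pathway were called about as often in the lower direction as all genes. Of 47 tested 4 rose and 11 fell (background 20.0% higher and 20.1% lower), the list median was -0.13, and 6 rose and 7 fell with the code term. Rpn1, a subunit of the oligosaccharyltransferase that adds N-glycans, fell to 66.7, 65.4, 67.9, 81.4 and 65.3 CPM with 4µ8C, against 166, 163, 153, 141 and 134 CPM in medium (-1.14, SE 0.13, adjusted p = 3.1e-10), without overlap. Hyou1, an ER chaperone, fell by 1.01 (SE 0.26), the coat protein Sec31a by 0.98 (SE 0.20) and the translocon subunit Sec61b by 0.57 (SE 0.16). Dnajb9, an ER co-chaperone widely read as a target of XBP1s, had 27, 31.4, 24.3, 13.9 and 33.6 CPM with 4µ8C, against 19.9, 21.1, 27.5, 24.4 and 49.7 CPM in medium (-0.09, 95% interval -0.55 to 0.36). The groups overlapped, and the sign turned without medium replicate 5 (0.22). Under library totals 32 of the list fell and 1 rose, with a median of -0.48 beside -0.39 for all genes.

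Dnajb11, a co-chaperone of BiP in the same list, rose. It had 88.2, 99.8, 102, 28.7 and 57.8 CPM with 4µ8C, against 14, 26.2, 34.9, 35.5 and 35.6 CPM in medium (1.40, SE 0.23, adjusted p = 3.9e-06). The 4µ8C libraries with codes in row A, column 1 or column 12, replicates 4 and 5, were the lowest of their group, and against medium they alone gave 0.63 (adjusted p = 0.23). Among 20 ER chaperones and folding factors 3 rose and 4 fell. The disulfide isomerase Pdia4 fell to 108, 115, 120, 110 and 88.7 CPM with 4µ8C, against 267, 277, 223, 217 and 233 CPM in medium (-1.17, SE 0.15, adjusted p = 9e-09), without overlap. Herpud1, of ER-associated degradation, fell by 1.07 (SE 0.29) and the lectin chaperone Calr by 0.35 (SE 0.12), while Hsp90b1 gave -0.15, SE 0.14, adjusted p = 0.41. Ero1l, the oxidase that drives disulfide formation, averaged 2413 ± 603 CPM with 4µ8C and 1129 ± 419 CPM in medium (1.10, SE 0.18), and Selm rose by 1.85 (SE 0.30).

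Transcripts described elsewhere as RIDD substrates were called higher about as often as all genes. Of 14 tested 3 rose and 1 fell (background 20.0% higher), with a median log2 fold change of 0.07, against 2 and 7 with a median of -0.29 under library totals. Bloc1s1, a widely used reporter of RIDD, had 13.5, 14, 16.5, 28.7 and 13.1 CPM with 4µ8C, against 24, 16.3, 16.9, 23.3 and 18.5 CPM in medium (-0.28, SE 0.21, adjusted p = 0.3). The groups overlapped, and 4µ8C replicate 4 was above the rest of its group. Those that rose were St3gal5, a ganglioside synthase (2.37, SE 0.33), Tapbp, tapasin of MHC class I loading (0.65, SE 0.11), and the growth factor receptor Pdgfrb (1.56, SE 0.59). The integrin Itgb2 fell by 0.37 (SE 0.15), with an adjusted p of 0.11 under the code term.

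**Figure D4:**
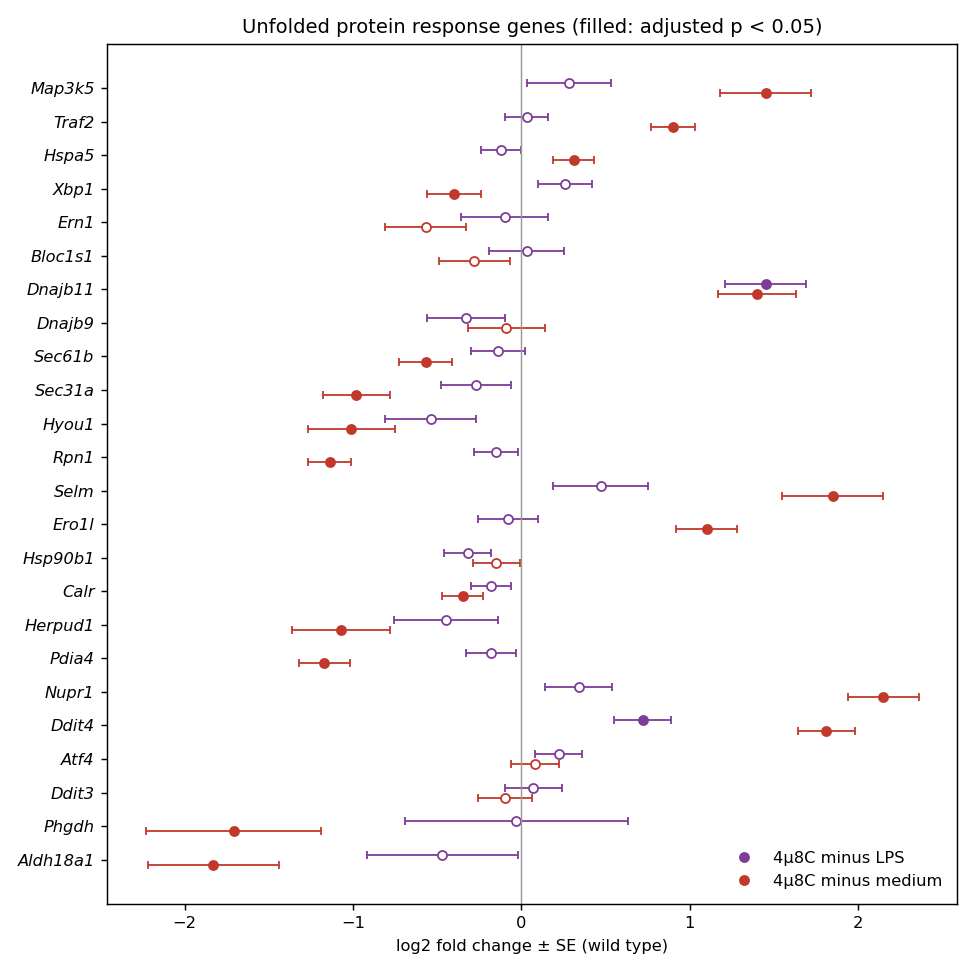
Log2 fold change with its SE in wild-type cells for 24 genes of the unfolded protein response, 4µ8C minus LPS in purple and 4µ8C minus medium in red; filled points have an adjusted p under 0.05. Pdia4 and Rpn1 lie below -1 against medium and between -0.2 and 0 against LPS, and Dnajb11 and Ddit4 have a filled purple point.

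Outside the IRE1 branch, 9 of 26 genes of the PERK and ATF4 list rose and 7 fell. Ddit4, an inhibitor of mTORC1, had 62.9, 48.4, 57.2, 38.9 and 40.3 CPM with 4µ8C, against 12.8, 13.9, 16, 14.8 and 13.7 CPM in medium (1.81, SE 0.17, adjusted p = 2.6e-12), without overlap. Nupr1, a stress-induced chromatin protein, rose by 2.15 (SE 0.21), and the amino acid synthesis enzymes Aldh18a1 and Phgdh fell, with values of -1.83 (SE 0.39) and -1.71 (SE 0.52). The transcription factors Atf4 and Ddit3 (CHOP) gave 0.08, SE 0.14 and -0.10, SE 0.16.

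In the NRF2 list of antioxidant genes 9 of 30 rose and 11 fell. Hmox1, haem oxygenase, averaged 7558 ± 1826 CPM with 4µ8C and 3580 ± 1276 CPM in medium (1.08, SE 0.15). Gpx1, glutathione peroxidase, fell to 137 ± 27 CPM with 4µ8C, against 427 ± 46.5 CPM in medium (-1.65, SE 0.14). Txnrd1, thioredoxin reductase, rose by 1.10 (SE 0.25), Osgin1 fell by 2.36 (SE 0.39), Gsta3 by 2.34 (SE 0.57) and Nqo1 by 1.42 (SE 0.40). 4µ8C is a coumarin, and of 4 tested targets of the aryl hydrocarbon receptor Tiparp rose by 1.38 (SE 0.13) while Ahrr fell by 1.47 (SE 0.43) and Nqo1, also in this list, fell.

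The same 4µ8C libraries were set against wild-type cells given LPS, because the labels do not say whether LPS was present with 4µ8C. Of 10287 genes 21 were higher with 4µ8C (0.204%) and 0 lower (0.0%) in edgeR, with 466 and 317 at an unadjusted p under 0.05, and DESeq2 called 64 higher and 4 lower. A p that misses the threshold does not show equal values. For 7459 genes (72.5%) the 95% interval of the log2 difference lay between -1 and 1, among them 987 of the 1778 called genes that differed from medium by more than 1. All 5 LPS libraries have codes in row A, column 1 or column 12. Of the 21 genes 20 were also lower in libraries with such codes, and with the code term 0 were called in edgeR (smallest adjusted p = 0.065, with 584 higher and 442 lower at an unadjusted p under 0.05). The code term rests on groups that hold both kinds of codes, wild-type 4µ8C among them. That overlap therefore comes partly from the same 4µ8C libraries and is not separate support. Without 4µ8C replicate 4 and medium replicate 1, 71 were higher and 2 lower, and leaving out single libraries gave 1 to 56 higher, with 56 without 4µ8C replicate 4.

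For the inflammatory genes the 4µ8C and LPS libraries overlapped. Il6 averaged 175 ± 80.4 CPM with 4µ8C and 208 ± 36.1 CPM with LPS (log2 difference -0.27, 95% interval -0.92 to 0.38), and Cxcl10 averaged 1619 ± 422 CPM with 4µ8C and 1462 ± 160 CPM with LPS (0.15, 95% interval -0.38 to 0.67). Nfkbia averaged 2177 ± 515 CPM with 4µ8C and 1997 ± 131 CPM with LPS (0.12, 95% interval -0.17 to 0.41), and Rsad2 averaged 12331 ± 1802 CPM with 4µ8C and 11273 ± 1127 CPM with LPS (0.13, 95% interval -0.55 to 0.81). No member of the cytokine, chemokine, NF-κB or interferon-stimulated list was called in edgeR, beside 0.204% of all genes called higher and 0.0% lower. With so low a share over all genes, 0 calls are not a trait of these lists. The list medians were -0.05, 0.04, 0.05 and -0.01, beside 0.01 for all genes. Il10 had 0.97 to 4.8 CPM with 4µ8C and 0.38 to 21.3 CPM with LPS (-1.50, 95% interval -3.05 to 0.04), an interval too wide to bound its difference closely.

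Genes that were low against medium were set against LPS in the same way. Idh1 averaged 28.4 ± 4.23 CPM with 4µ8C and 36 ± 8.89 CPM with LPS (log2 difference -0.34, 95% interval -0.75 to 0.07), and Cd300lb averaged 4.98 ± 2.31 CPM with 4µ8C and 4.57 ± 1.54 CPM with LPS (0.17, 95% interval -0.44 to 0.78). Of the ER genes, Xbp1 averaged 201 ± 32.3 CPM with 4µ8C and 169 ± 13.7 CPM with LPS (0.26, 95% interval -0.07 to 0.58), Pdia4 averaged 108 ± 11.9 CPM with 4µ8C and 123 ± 15.1 CPM with LPS (-0.18, 95% interval -0.48 to 0.13), and Dnajb9 averaged 26 ± 7.7 CPM with 4µ8C and 33.3 ± 8.42 CPM with LPS (-0.33, 95% interval -0.79 to 0.14). None of these 5 genes was called. In the XBP1s target list 37 of 47 had a fitted value below 0 against LPS (29 with the code term), with a median of -0.12 beside 0.01 for all genes. By sign, some other lists were as one-sided in the other direction. Above 0 were 40 of 41 ribosomal protein genes, 33 of 38 oxidative phosphorylation genes and 26 of 31 proteasome genes. At an unadjusted p under 0.05 in edgeR, 6 of 47 XBP1s targets were lower and 1 higher, beside 317 lower and 466 higher of 10287 genes. Of ribosomal protein genes 0 were lower and 2 higher, of oxidative phosphorylation genes 1 and 2, and of proteasome genes 0 and 2. The difference between these lists was not tested. The comparisons of 4µ8C and of LPS with medium share the medium libraries; LPS minus medium gave 4.78 for Il6, 3.38 for Cxcl10, -3.23 for Idh1 and -0.66 for Xbp1.

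The listed genes called against LPS were Dnajb11, Socs1, Rps2 and Ddit4. Dnajb11 had 30.4, 27.8, 30.8, 24 and 28 CPM in LPS libraries, below 4 of the 5 4µ8C libraries (log2 difference 1.45, SE 0.24, adjusted p = 0.0031). With the code term its difference was 0.86 (adjusted p = 0.065), and among libraries with row A, column 1 or column 12 codes alone it was 0.67 (adjusted p = 0.4). Socs1, a feedback inhibitor of JAK signalling, averaged 353 ± 140 CPM with 4µ8C and 167 ± 30 CPM with LPS (1.09, SE 0.25, adjusted p = 0.046). Rps2, a ribosomal protein gene with near-identical copies and so uncertain, averaged 284 ± 142 CPM with 4µ8C and 105 ± 15.5 CPM with LPS (1.44, SE 0.33, adjusted p = 0.046). Ddit4 averaged 49.5 ± 10.5 CPM with 4µ8C and 30.5 ± 5.71 CPM with LPS (0.72, SE 0.17, adjusted p = 0.046). With the code term the differences of Socs1, Rps2 and Ddit4 were 0.44, 0.47 and 0.52, and none was called.

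Some calls against medium depended on the code term too. Of 1730 called genes with at least 10 CPM in a group and no overlap, 81 were not called with it. The largest among the higher were Cebpb, a transcription factor of myeloid inflammation, at 2.09 and 0.56 with the term, the chemokine Cxcl5 at 1.82 and 1.74, Socs4 at 1.38 and 0.54, and Vapa, an ER contact-site protein, at 1.33 and 0.18. The largest among the lower were Rps27, which has near-identical copies and is uncertain, at -2.08 and -1.94, Ndufaf1 at -0.86 and -0.70, Acad8 at -0.78 and -0.57, and Cyp4f16 at -0.76 and -0.54.

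No gene set 4µ8C apart from all 4 other wild-type groups at once in edgeR or DESeq2, higher or lower. Such a gene must also be called against LPS, where edgeR called 21 higher and 0 lower. The count of 0 lower in edgeR therefore follows from that comparison and is not a separate result. At an unadjusted p under 0.05 in all 4 comparisons 36 were higher and 92 lower in edgeR. Without 4µ8C replicate 4 and medium replicate 1, 2 were higher and 2 lower. Against 4PBA 1229 genes were higher with 4µ8C and 1342 lower, and against rapamycin 2703 were higher and 2912 lower.

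In KO cells the same comparison rests on other libraries. Bag6, the targeted gene, averaged 9.75 ± 2.89 CPM in KO cells with 4µ8C and 9.22 ± 2.83 CPM in KO medium, and 12.7 ± 2.48 CPM in wild-type cells with 4µ8C and 14.4 ± 2.16 CPM in wild-type medium, so it was still counted in KO cells. A gene-level value does not show whether those reads come from the deleted part of the gene, so it does not check the KO label. In KO cells 1657 genes were higher with 4µ8C than in medium (16.1%) and 1703 lower (16.6%). Higher in both genotypes were 1356 genes, 65.9% of the wild-type list and 81.8% of the KO list. Lower in both were 1152, 55.8% of the wild-type list and 67.6% of the KO list. Called in opposite directions were 35 genes higher in wild-type and lower in KO cells, and 0 the other way. Called higher in KO cells were 20 of 22 cytokines, 28 of 29 NF-κB genes and 43 of 44 interferon-stimulated genes. Il6 rose by 3.70 in KO cells, Idh1 fell by 2.89 and Xbp1 fell by 0.75.

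The test of the difference between genotypes called 184 genes (1.79%), 175 with a more positive 4µ8C minus medium value in wild-type cells and 9 with a more negative one. Adssl1, a purine nucleotide enzyme, had 165, 140, 95.1, 28.7 and 50 CPM in wild-type cells with 4µ8C, against 36.8, 47.6, 36.4, 41.2 and 36.9 CPM in wild-type medium. In KO cells it had 112, 32.8, 40.5, 68 and 135 CPM with 4µ8C, against 221, 227, 216, 268 and 262 CPM in medium. The log2 fold change was 1.30 in wild-type and -1.61 in KO cells, a difference of 2.91, SE 0.55, adjusted p = 0.0035. No KO medium library and all wild-type medium libraries have codes in row A, column 1 or column 12. Of the 184 genes 132 were lower in libraries with such codes, and with the code term 0 were called in edgeR (645 at an unadjusted p under 0.05, smallest adjusted p = 0.1). This overlap too comes partly from the same libraries, since both 4µ8C groups inform the code term. Leaving out single libraries gave 86 to 297 genes, with 86 without wild-type 4µ8C replicate 2 and 297 without replicate 4. Genotype and code cannot be told apart between the medium groups.

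Among called genes with at least 10 CPM in a group, the largest positive differences between genotypes were those of Syap1 (3.39, SE 0.70), Ndnl2 (3.10, SE 0.76), Rnf187 (3.04, SE 0.77), Marcksl1 (2.98, SE 0.64), Adssl1 and the uridine kinase Uck2 (2.84, SE 0.75). The largest negative ones were those of Cd300lb (-1.40, SE 0.31), the transcription factor Gtf3a (-1.19, SE 0.33), Gnl3l (-1.19, SE 0.33), Gm14288, of a multigene family and uncertain (-1.11, SE 0.27), the peroxisomal oxidase Acox3 (-0.81, SE 0.22) and the oligosaccharyltransferase subunit Stt3a (-0.64, SE 0.16). Cd300lb fell to 9.69 ± 1.17 CPM in KO cells with 4µ8C, against 60.6 ± 13.5 CPM in KO medium (-2.65), and its difference between genotypes was -1.47 with the code term (adjusted p = 0.27). Acox3 averaged 41.7 ± 11.9 CPM in wild-type cells with 4µ8C and 82.1 ± 14.5 CPM in wild-type medium, and 65.6 ± 9.79 CPM in KO cells with 4µ8C and 71.9 ± 12.4 CPM in KO medium.

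**Figure D5:**
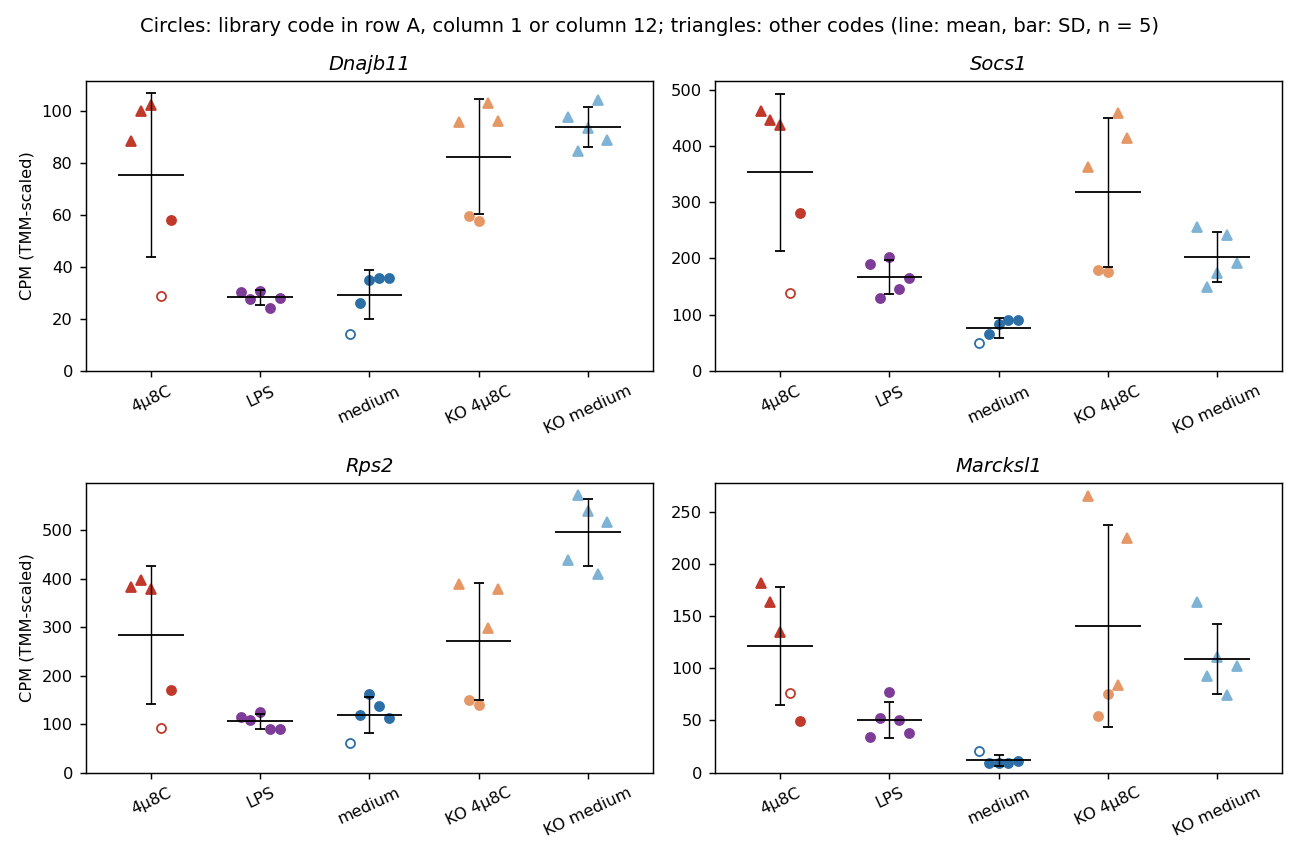
CPM (TMM-scaled, linear axes from 0) of Dnajb11, Socs1, Rps2 and Marcksl1 in each library of 5 groups; circles are libraries with codes in row A, column 1 or column 12, triangles other codes, open symbols 4µ8C replicate 4 and medium replicate 1, lines means and bars SD (n = 5). For Dnajb11 the circles of both 4µ8C groups lie at 28.7 to 59.4 CPM and the triangles at 88.2 to 103 CPM.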

How the data were processed

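RNA was sequenced from 45 libraries in 9 groups of 5. Per the labels, 1 µg of total RNA entered each library. Per the submitters' processing notes bcl2fastq and RSEM were used, with no version, while genome build and aligner were not stated in the sources read. The authors deposited per library an expected count and a TPM value for each of 23420 genes; expected counts are RSEM's estimates, 9.092% of them not whole, and were rounded. Only expected counts were tested; no result rests on the deposited TPM values. No source used here states a strand setting, so overlapping and antisense genes, and genes with near-identical copies, are uncertain.

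One model over all 45 libraries was fitted with edgeR 4.0.16 (limma 3.58.1, R 4.3.3): filterByExpr (10287 genes), TMM scaling, robust quasi-likelihood test, Benjamini-Hochberg adjustment, threshold 0.05, 36 residual degrees of freedom. CPM are counts per library size after TMM scaling. The procedure was tested on simulated data with a small share of genes changed in wild-type 4µ8C alone. These data held no effect of the library code and no library that stands apart, so the simulation does not cover either. An SE is the log2 fold change divided by the root of F. Floors and p-values cover counting error and the spread between these libraries only. Alternatives were DESeq2 1.42.0, other scaling, no low-count filter, thinning to 1509200 counts, no Rn45s, only the groups compared, a replicate block, the library code, and leaving out each library; leaving out both libraries that stand apart, scaling by totals and a block for KO cells alone were added after seeing the data.

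The text names in lists up to 6 members (largest change, then best known), the 12 called genes with the largest rise and the 12 with the largest fall among those with at least 10 CPM and no overlap, 4 each way that were not called with the code term (the first 24 were), any gene set apart from all other wild-type groups (none), and the 6 most positive and 6 most negative genotype differences. Members and the 36 lists (855 genes, 8 without a row) were chosen with earlier results of these data known, so the list counts are descriptions. Same-numbered libraries deviated together in KO cells (r of deviations from the group means 0.195 to 0.677 between 4µ8C and medium, over 0.1 in all 5 pairs). Only KO 4µ8C replicates 4 and 5 correlated best with their own number, and the labels give no pairing. Promoters are RefSeq's, matched by symbol.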

Additional observations from a re-analysis of the deposited data

Results flagged for a closer look

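In 39 of 314 groups of 5 libraries tested, 1 library lay far from the other 4 of its group by Dixon's test at the 95% level, a test that flags about 1 in 20 groups by chance. Replicate 4 was that library in 16 of these cases among 4µ8C libraries, and replicate 1 in 14 among medium libraries. The values of 4µ8C replicate 4 stand here against the range of the other 4 4µ8C libraries. Bloc1s1 had 28.7 CPM against 13.1 to 16.5, Cdkn1a had 3321 CPM against 1976 to 2203 and Hmox1 had 10808 CPM against 6434 to 6908. Il1b had 9912 CPM against 3943 to 5172, Irg1 had 12870 CPM against 8211 to 8875 and Nfkbia had 3089 CPM against 1841 to 2029. Psmb10 had 466 CPM against 285 to 326, Psmb6 had 1051 CPM against 616 to 657 and Rpn1 had 81.4 CPM against 65.3 to 67.9. Rrp15 had 1.85 CPM against 0 to 0, Schip1 had 50.9 CPM against 25.7 to 32.9 and Sec31a had 5.55 CPM against 16.4 to 19.9. Sec61b had 82.4 CPM against 43.7 to 48.1, Tapbpl had 306 CPM against 167 to 206 and Tlr4 had 13 CPM against 57.2 to 74.7. Traf1 had 902 CPM against 603 to 676.

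Other 4µ8C libraries stood apart for single genes, given against the other 4. Gm14288 had 12.1 CPM in replicate 3 against 9.98 to 10.5, Il23a had 6.79 CPM in replicate 3 against 0 to 1.27 and Nfam1 had 34 CPM in replicate 3 against 16.4 to 19.4. Serpinb1a had 121 CPM in replicate 5 against 52.9 to 71.3. In medium replicate 1 the values stand against the other 4 medium libraries. Cd40 had 108 CPM against 37.4 to 57.5, Cdkn1a had 1233 CPM against 790 to 905 and Ctsc had 2021 CPM against 1069 to 1341. Ddit3 had 118 CPM against 80.2 to 90.1, Hmox1 had 5773 CPM against 2459 to 3361 and Il27 had 5.15 CPM against 0.852 to 2.07. Marcksl1 had 20.8 CPM against 8.8 to 11.3, Psmb10 had 254 CPM against 122 to 151 and Ptges had 332 CPM against 103 to 164. Rpl24 had 370 CPM against 249 to 270, Socs3 had 407 CPM against 232 to 274 and Tapbp had 1280 CPM against 804 to 913. Tlr2 had 267 CPM against 176 to 196 and Vcam1 had 0.981 CPM against 0 to 0.267. Other medium libraries stood apart as follows. Dnajb9 had 49.7 CPM in replicate 5 against 19.9 to 27.5, Idi1 had 28.4 CPM in replicate 3 against 17.4 to 20.2 and Lipa had 426 CPM in replicate 5 against 499 to 522. Ncl had 76.2 CPM in replicate 5 against 49.8 to 54.5 and Vegfa had 10.2 CPM in replicate 5 against 3.26 to 5.15.

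For 18 named genes the 4µ8C minus medium log2 fold change differed between wild-type and KO cells by edgeR's test of the difference itself (adjusted p under 0.05). Wild-type minus KO, the difference was 3.39 for Syap1, 3.10 for Ndnl2, 3.04 for Rnf187, 2.98 for Marcksl1, 2.91 for Adssl1, 2.84 for Uck2, 2.32 for Vapa, 2.14 for Rps2, 2.03 for Socs4, 1.58 for Dnajb11, 1.58 for Socs1 and 1.26 for Ddit4. It was -0.64 for Stt3a, -0.81 for Acox3, -1.11 for Gm14288, -1.19 for Gnl3l, -1.19 for Gtf3a and -1.40 for Cd300lb. With the library code as a term none of the 18 passed, and the part of the code in these differences was not tested further.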

How the results depend on the processing

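The counts against medium stayed within 1.5 times under DESeq2, RLE factors, no filter on low counts, thinning, the code term, only the groups compared and the 2 libraries left out. Exceptions were scaling by library totals (1115 higher, 4145 lower) and libraries with row A, column 1 or column 12 codes alone (939 and 789). Leaving out each library gave 1848 to 2087 higher and 1806 to 2196 lower. The 21 genes higher than with LPS became 64 (DESeq2, 4 lower), 71 (2 libraries left out, 2 lower), 13 (no filter), 11 (only the groups compared), 8 (thinned), 1 (library totals), and 0 with the code term and among those codes alone; RLE factors called 1 lower. Leaving out each library gave 1 to 56 higher, with 56 without 4µ8C replicate 4, and 0 to 2 lower. Genes set apart from the 4 other wild-type groups numbered 2 higher and 2 lower with the 2 libraries left out, and 0 to 2 higher and 0 to 1 lower leaving out each library. The 184 genotype differences became 87 under library totals and 0 with the code term, and 86 to 297 leaving out each library, with 86 and 88 without 4µ8C replicates 2 and 1 and 297 without replicate 4. The causes were not tested. Set-apart and genotype counts have no value among those codes alone, since KO medium and 4PBA libraries hold none.

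In wild-type cells not every pair of same-numbered libraries deviated together. The r of same-numbered deviations was -0.389, 0.123, 0.45, -0.078 and 0.575 for 4µ8C and medium, and 0.371, 0.227, 0.379, -0.036 and 0.578 for 4µ8C and LPS, with 2 of 5 and 3 of 5 libraries best correlated with their own number. With a replicate block 1478 genes were higher and 1442 lower than in medium, 0 higher and 0 lower than with LPS, 0 and 0 set apart, and 173 differed between genotypes. Between KO 4µ8C and KO medium every same-numbered r was over 0.1, though only KO 4µ8C replicates 4 and 5 correlated best with their own number. Over the 10 KO libraries alone 1719 genes were higher and 1775 lower with the block, against 1565 and 1571 without it.

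Of 144 named genes called against medium, 139 stayed called with the 2 libraries left out, 125 with the code term and 130 in every fit that left out 1 library. Hspa5, Xbp1, Il10, Ppbp, Pdgfrb, Itgb2, Lgmn, Ccr7, Relb, Pim1, Rpl24, Rnf187, Rps27 and Cebpb lost the call in at least 1 of those fits. The sign turned for Ddit3 (0.01 with the code term, 0.27 among those codes alone, -0.28 to 0.00 leaving out each library), Rnf187 (-0.50 and -0.13 in the first and second of these), Uck2 (-0.07 with the code term), Atf4 (-0.26 under library totals, -0.05 to 0.16 leaving out each library, lowest without 4µ8C replicate 4), Hspa5 (-0.03 under library totals) and Dnajb9 (-0.20 to 0.22 leaving out each library, above 0 without medium replicate 5 and, at 0.02, without 4µ8C replicate 4). With 1509219 expected counts in the shallowest library, genes under about 1 CPM rest on a few counts each.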

Other observations

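The remaining gene lists are given as counts beside all genes, of which 20.0% were higher and 20.1% lower with 4µ8C. Of 10 tested complement genes 1 rose and 5 fell, with a list median of -0.62. With the code term 3 fell, without the 2 libraries that stand apart 3 fell, and under library totals 7 fell. The summed CPM of the list was higher with 4µ8C, with a median of 9179 against 5281 in medium. Of 15 metallothionein and iron genes 7 rose and 3 fell, and of 33 cell cycle genes 3 rose and 2 fell. Of 11 genes of the BAG6 complex, which handles misplaced membrane proteins, 2 rose and 3 fell. Of 22 lectins and scavenger receptors 5 rose and 7 fell, and of 12 chemokine receptors 5 rose and 3 fell. All are counts at an adjusted p under 0.05 in edgeR, and no test compared these lists with other genes.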
